A study of Mus musculus with 17 samples.

Results

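Axon guidance ligands and receptors were followed in cells sorted from both walls of the postnatal mouse subventricular zone (SVZ), the germinal layer that lines the lateral ventricles. The members were chosen by name: semaphorins of classes 3 to 7, plexins, neuropilins, ephrins and Eph receptors, Slits and Robos, and netrins with their receptors Dcc and Unc5. A probe also had to be well above background, by the scanner software's own flag, in either channel on at least 2 arrays. Of 41174 probes, 128 matched by name and 121 of these passed, and they measured 71 of the 24350 genes tested. All 71 genes kept a passing probe. Unc50 and Unc5cl matched by the start of their names and are not netrin receptors, which left 69 guidance genes. At the threshold, a Robo2 probe and the Unc5cl probe passed with 2 arrays, and an Unc5c probe with 1 array did not.

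Guidance cues tell a growing axon or a migrating neuron where to go. Semaphorins signal through plexins, with neuropilins as co-receptors for the secreted class, Slits signal through Robo receptors, netrins through Dcc and Unc5, and membrane-bound ephrins through Eph receptors on the neighbouring cell. In the postnatal SVZ these families are known for steering young neurons from the ventricle wall to the olfactory bulb: Slits and Robos direct chains of neuroblasts through astrocyte tunnels, and ephrins and Eph receptors act on progenitor proliferation and on migration.

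All mice were of the CD1 strain and were electroporated in vivo at postnatal day 1 so that progenitors of either the dorsal or the lateral SVZ wall carried GFP, and GFP-positive cells were then sorted by flow cytometry. The groups were the dorsal and the lateral wall after 8 hours (2 arrays), 1 day (3 arrays), 2 days (2 arrays), 4 days (3 arrays), 7 days (3 arrays) and 14 days (4 arrays), labelled as biological replicates. Each of the 17 Agilent arrays held a dorsal sample in Cy3, labelled as polyA RNA, and a lateral sample of the same time in Cy5, labelled as total RNA, after global PCR amplification of the cDNA. For the expression construct, its promoter and the number of animals per sample the sources used here give no information. The dyes were never swapped, so wall and dye cannot be told apart in a dorsal to lateral difference, whereas a constant dye effect cancels in a change with time within a wall and in a change of the wall difference.

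In the dorsal channel 41 to 76.7% of probes were well above background and in the lateral channel 56.4 to 79.4%, and the number of arrays per time limits the precision. The arrays least like the rest were 1 day replicate 1 and 14 days replicate 2: their median correlation across genes with the others was 0.69 and 0.77, against 0.85 to 0.92. The arrays lay on 5 slides. The 1 day arrays had a slide to themselves, and so had the 14 days arrays, so these times cannot be told apart from their slides, and slides 1, 3 and 4 each held early and late times. Early means 8 hours, 1 day and 2 days (7 arrays) and late means 4, 7 and 14 days (10 arrays), each time weighted equally. Radial glia markers, which define the electroporated progenitors, were well above background on most arrays for 11 of 13 genes in the dorsal and 12 of 13 in the lateral channel, and neuroblast markers for 16 of 16 in both.

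Receptors and ligands of several families rose or fell as the sorted cells aged. Plxna4, Robo2 and Efnb3 rose most in the lateral wall, Sema5a and Sema7a rose in both walls, and Sema5b and Sema3b fell in the lateral wall. Between early and late times 13 of 71 members changed in the lateral wall, 10 upward and 3 downward, where 6.5% of all genes did so (3.46% upward and 3.04% downward; limma, adjusted p under 0.05, which is the rule for every call here). In the dorsal wall 6 of 71 changed, 3 each way, where 5.25% of all genes did so (1.51% upward and 3.74% downward). The median late minus early difference of the members was 0.36 (log2) in the lateral and 0.04 in the dorsal wall, against 0.03 over all genes in both. In the mean of both walls 12 of 71 members changed over the 6 times by the F test, where 8.06% of all genes did so: Sema5a, Plxna4, Slit2, Robo2, Sema7a, Ephb1, Plxna3, Plxna1, Sema3b, Sema6b, Plxnb3 and Nrp2. In sorted bulk samples fewer cells of a type and less RNA per cell cannot be told apart, and this holds for every level given here.

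**Figure D1:**
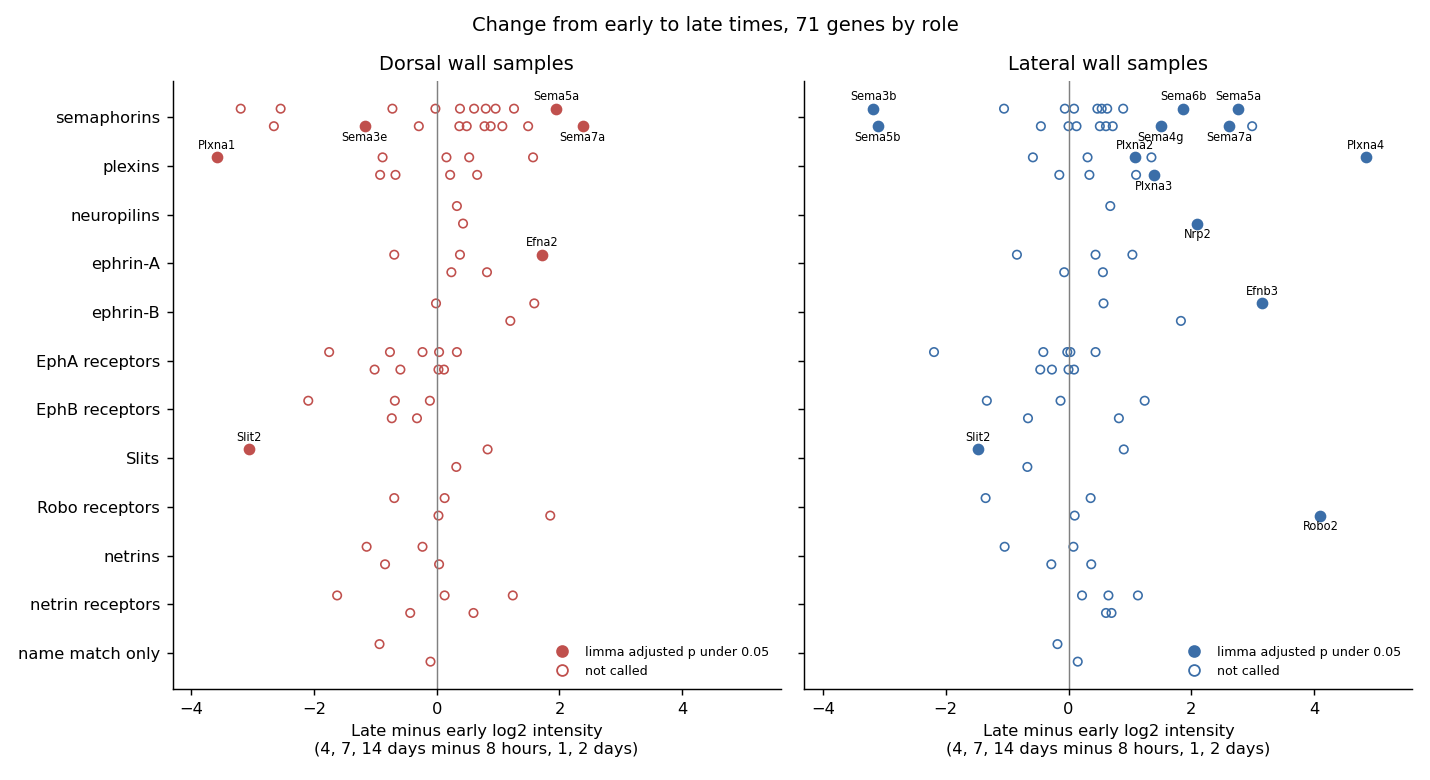
Late minus early log2 difference of each of the 71 members in the dorsal and the lateral wall, grouped by family, with filled points for members that passed limma's adjusted p under 0.05. The lateral calls lie between -3.18 for Sema3b and 4.85 for Plxna4, and the dorsal calls between -3.57 for Plxna1 and 2.38 for Sema7a.

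Of the 20 semaphorins, the largest ligand family here, 6 changed in the lateral and 3 in the dorsal wall, where 6.5% and 5.25% of all genes did so, with medians of 0.52 and 0.55. The promoters of Sema5a, Sema7a and Sema4g, which rose in the lateral wall, are shown beside that of Sema5b, which fell, because these genes of a single family moved in opposite directions. Each line is the 250 bases before the transcription start from RefSeq (GRCm38.p6), read 5′ to 3′ on the gene's strand, which is the plus strand in all 4. They lie at chr15:32244563-32244812 (Sema5a), chr9:57939862-57940111 (Sema7a), chr19:44989094-44989343 (Sema4g) and chr16:35541112-35541361 (Sema5b). Capitals mark CAGCTG, the E-box form bound by proneural bHLH factors, and TAATTA, a core bound by homeodomain proteins, was searched too. Both motifs read the same on either strand, and a match of one cannot overlap a match of the other.
Sema5a: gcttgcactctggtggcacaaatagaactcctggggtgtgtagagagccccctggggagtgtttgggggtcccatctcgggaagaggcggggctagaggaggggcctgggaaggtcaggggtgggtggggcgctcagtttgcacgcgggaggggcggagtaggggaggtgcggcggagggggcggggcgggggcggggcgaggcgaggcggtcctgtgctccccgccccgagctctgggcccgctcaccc
Sema7a: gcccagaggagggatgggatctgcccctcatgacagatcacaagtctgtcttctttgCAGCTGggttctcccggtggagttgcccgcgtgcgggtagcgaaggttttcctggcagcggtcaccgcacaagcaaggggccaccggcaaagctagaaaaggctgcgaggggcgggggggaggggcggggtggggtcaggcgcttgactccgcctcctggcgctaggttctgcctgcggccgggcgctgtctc
Sema4g: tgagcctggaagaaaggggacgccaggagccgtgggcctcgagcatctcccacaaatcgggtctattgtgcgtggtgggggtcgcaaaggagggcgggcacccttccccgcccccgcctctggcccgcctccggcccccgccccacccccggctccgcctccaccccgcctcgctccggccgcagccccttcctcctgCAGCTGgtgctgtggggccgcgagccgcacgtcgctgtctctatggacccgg
Sema5b: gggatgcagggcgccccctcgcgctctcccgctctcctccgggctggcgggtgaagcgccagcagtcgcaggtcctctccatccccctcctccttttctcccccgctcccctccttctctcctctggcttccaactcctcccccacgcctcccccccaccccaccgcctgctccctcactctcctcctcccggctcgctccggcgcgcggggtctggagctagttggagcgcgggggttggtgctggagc
CAGCTG was found once in the Sema7a window, at position -193 from the transcription start, and once in the Sema4g window, at -52. It was found in neither the Sema5a nor the Sema5b window, and TAATTA was in none of the 4. Over all 32851 RefSeq windows of this length CAGCTG occurred in 13% and TAATTA in 4.84%. Promoters were matched for 61 of the 71 members, and of their 77 windows 12 (15.6%) held CAGCTG and 3 (3.9%) TAATTA. The windows were rich in G and C, at 72% for Sema5a and for Sema5b, 66.4% for Sema7a and 73.2% for Sema4g, where the median was 64.4% over the members' windows and 52.4% over all. A match describes the letters only.

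Sema5a encodes a transmembrane semaphorin with thrombospondin repeats that can attract or repel axons. Its probe lies at mm9 chr15:32625859-32625918 (plus strand). In the lateral wall the lowest, median and highest log2 levels were 8.15, 10 and 11.45 at early times and 11.39, 12.36 and 13.53 at late times. In the dorsal wall they were 9.52, 10.51 and 11.61 early and 11.05, 12.32 and 15.58 late. The groups overlapped narrowly in both walls, and the highest levels were those of 14 days, at 13.94 ± 1.17 (SD, n = 4) dorsal and 12.91 ± 0.65 lateral. Sema5a rose 6.80-fold in the lateral wall (2.76 ± 0.27, log2 ± SE, limma adjusted p = 5.3e-05) and 3.87-fold in the dorsal wall (1.95 ± 0.39, adjusted p = 0.00931). Within slides 1, 3 and 4 the lateral difference was 3.95, 1.99 and 2.95, and the dorsal one 1.53, 0.04 and 0.86. The within-slide values, which do not contain 1 and 14 days, were smaller than the whole in the dorsal wall. With slide as a block, here and below, only slides 1, 3 and 4 were fitted, so 1 and 14 days were left out. The dorsal difference of Sema5a was then 0.99 (adjusted p = 0.132). A second, dimmer Sema5a probe gave 0.33 in the lateral and 1.52 in the dorsal wall.

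Sema7a, a GPI-anchored semaphorin that promotes axon growth through integrins, was measured by 1 probe at mm9 chr9:57810607-57810666 (plus strand). Its dorsal levels ran from 6.96 over a median of 8.33 to 9.19 at early times and from 7.11 over 10.85 to 11.56 at late times. The lateral levels ran from 7.00 over 8.87 to 10.53 and from 9.95 over 11.35 to 12.36. The late groups lay higher in both walls, and the overlap came in the dorsal wall from 14 days, where 2 of the 4 arrays, at 7.11 and 8.81, lay within the early range. Sema7a rose 5.21-fold in the dorsal wall (2.38 ± 0.42, adjusted p = 0.00506) and 6.11-fold in the lateral wall (2.61 ± 0.51, adjusted p = 0.00764). Both rises were kept without any single array, and within slides 1, 3 and 4 they were 3.77, 2.31 and 2.65 dorsal and 2.72, 2.10 and 3.00 lateral. The peak came at 4 days, at 11.22 ± 0.21 (SD, n = 3) dorsal and 11.87 ± 0.52 lateral.

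Sema4g, a transmembrane semaphorin of class 4 (mm9 chr19:45077642-45077701, plus strand), was bright on all arrays. Lateral levels were 11.66, 12.69 and 13.65 (lowest, median, highest) early and 13.56, 14.10 and 14.80 late, so only the edges met. It rose 2.82-fold in the lateral wall (1.5 ± 0.23, adjusted p = 0.00155), with within-slide values of 2.13, 1.30 and 1.44. The dorsal difference was 0.80 (adjusted p = 0.462). Sema6b, a transmembrane semaphorin of the class that binds A-type plexins, went in the lateral wall from 9.14, 9.94 and 12.13 to 10.45, 12.35 and 13.24, with wide overlap. It rose 3.65-fold (1.87 ± 0.49, adjusted p = 0.0371), a call kept in 4 of 17 fits that each left out 1 array (leave-one-out).

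Sema5b, the close relative of Sema5a that inhibits neurite growth, moved the other way. Its lateral levels were 13.21, 13.56 and 14.74 early and 6.58, 10.50 and 13.65 late, and its dorsal levels 13.15, 13.80 and 15.21 early and 6.49, 10.46 and 14.37 late. At 4 and 7 days all arrays of both walls lay below every early array, whereas the 14 days arrays spread over the whole range, with SDs of 3.60 dorsal and 3.17 lateral (n = 4). Sema5b fell 8.62-fold in the lateral wall (-3.11 ± 0.80, adjusted p = 0.0356), and the dorsal difference of -3.19 ± 0.93 did not pass (adjusted p = 0.0677). The lateral call was kept in 8 of 17 leave-one-out fits, and the within-slide lateral values of -3.32, -3.28 and -2.35 do not contain 14 days. Of the other probes of Sema5b (the brightest at mm9 chr16:35664275-35664334, plus strand), 1 gave -3.05 in each wall and 1 gave -0.59 dorsal and -0.91 lateral.

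Of the secreted class 3 semaphorins, Sema3b, a repellent that binds neuropilins, fell in the lateral wall by a measured log2 difference of -3.18 ± 0.57 (adjusted p = 0.00477). Its lateral levels went from 6.62, 10.22 and 12.51 to 6.00, 6.53 and 8.31, and it was above background on 7 of 7 early but 5 of 10 late arrays. The late mean thus includes arrays at the floor, and with slide as a block the difference was -2.57 (adjusted p = 0.154). The dorsal levels of Sema3b went from 8.00, 10.10 and 11.31 to 6.26, 6.46 and 12.19, and the dorsal difference did not pass. Sema3e, a ligand that binds Plxnd1 directly, fell 2.25-fold in the dorsal wall (-1.17 ± 0.28, adjusted p = 0.0267), from 7.22, 8.35 and 9.11 to 6.46, 6.90 and 7.93, with overlap. Its other probes gave -0.69 and -0.14 there. The lateral levels of Sema3e went from 6.11, 8.17 and 12.74 to 6.46, 7.16 and 9.28, and the lateral difference did not pass. Sema3a and Sema3c, classical repellent and attractant ligands of the neuropilins, did not pass in either wall: the late minus early differences were -0.02 ± 0.64 dorsal and 0.51 ± 0.57 lateral for Sema3a, and -0.72 ± 0.48 and -0.45 ± 0.52 for Sema3c. The dorsal value of Sema6a, a transmembrane ligand of Plxna2 and Plxna4, missed the threshold at -2.65 ± 0.72 (adjusted p = 0.0501), with levels of 10.38, 11.25 and 12.77 early and 6.96, 7.86 and 12.88 late. Its lateral value was 0.72 ± 0.52 (adjusted p = 0.596). Sema4f, a class 4 semaphorin, had a large lateral difference with a large error, 2.99 ± 1.02 (adjusted p = 0.115). Sema3d, Sema3f, Sema3g, Sema4a, Sema4b, Sema4c, Sema4d, Sema6c and Sema6d lay between -0.29 and 1.26 dorsally and between -0.06 and 0.89 laterally, and none passed.

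Of the 9 plexins, the receptors of the semaphorins, 3 rose in the lateral wall and 1 fell in the dorsal wall, with medians of 1.09 and 0.16. Over all genes 3.46% rose laterally and 3.74% fell dorsally. Plxna4, a receptor for class 3 and class 6 semaphorins, gave the largest lateral difference of all members. Its probe lies at mm9 chr6:32094602-32094661 (minus strand), at position 12483 of the transcript. Early lateral levels were 9.63 and 9.97 (8 hours), 7.36, 7.45 and 6.73 (1 day) and 9.66 and 9.59 (2 days). Late ones were 14.40, 14.13 and 14.23 (4 days), 13.69, 13.73 and 13.71 (7 days) and 13.41, 13.97, 12.47 and 12.89 (14 days). No late array fell within the early range, which held for late higher levels in 0.99% of all genes in the lateral channel, and among members for Plxna4, Robo2 and Efnb3. In the dorsal channel it held for no member and for 0.296% of all genes. Over all genes only such a separation of all late from all early levels was counted, and other separations described here were not. Plxna4 rose 28.8-fold (4.85 ± 0.21, adjusted p = 1.7e-07), with within-slide values of 4.16, 4.38 and 4.34. In the dorsal wall its levels were 9.11, 10.50 and 13.17 early and 10.22, 12.55 and 15.08 late, which overlapped widely, and the difference was 1.57 ± 0.66 (adjusted p = 0.236). The dimmer Plxna4 probes, at positions 7837 and 6601, gave 1.84 ± 0.60 and 0.89 ± 0.34 in the lateral wall, upward but less so, and the second was well above background on 6 arrays.

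**Figure D2:**
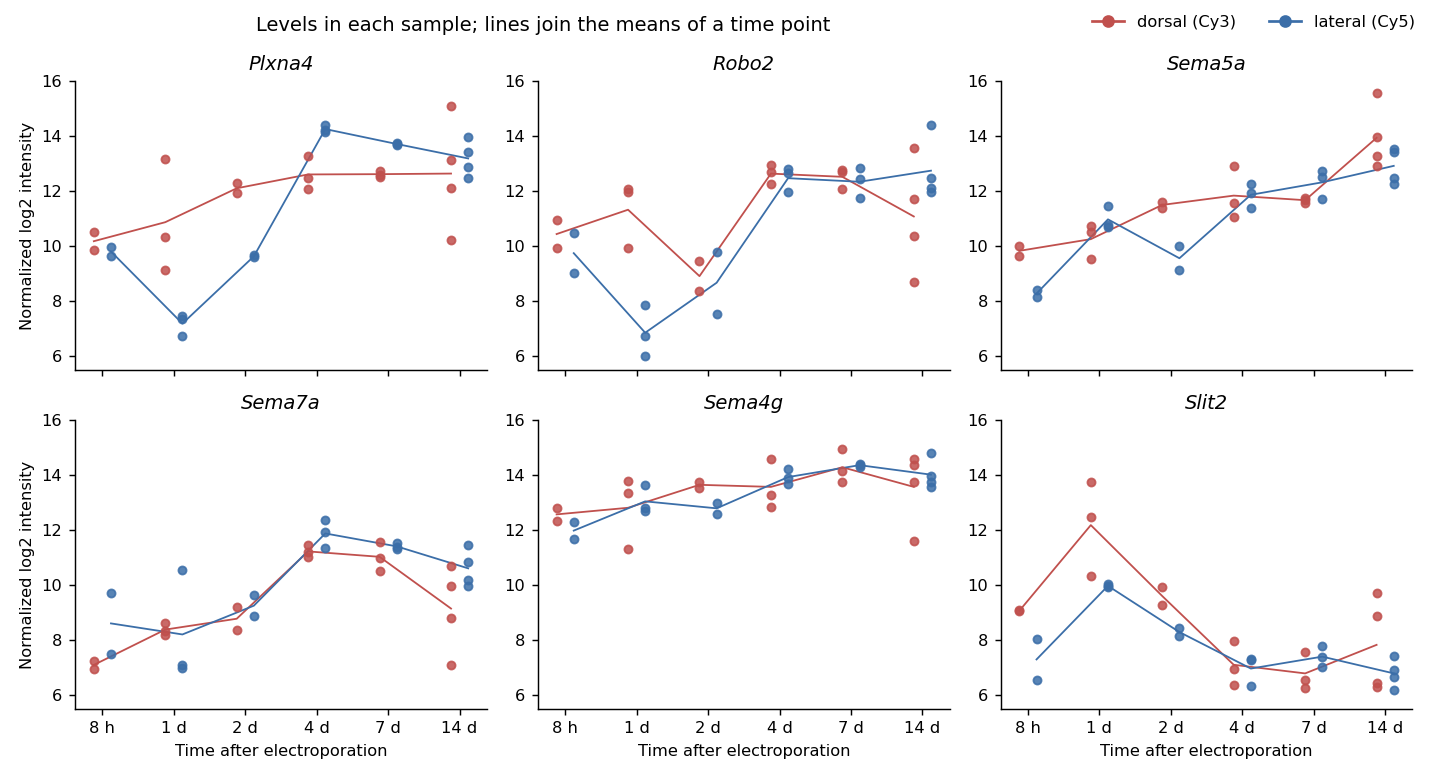
Normalised log2 level of Plxna4, Robo2, Sema5a, Sema7a, Sema4g and Slit2 in every dorsal and lateral sample by time after electroporation, with lines through the means of each time. Lateral Plxna4 steps from at most 9.97 at early times to at least 12.47 at late times, and Slit2 peaks at 1 day in both walls.

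The other plexin calls were smaller or less stable. Plxna2, a receptor for Sema6a, rose 2.12-fold in the lateral wall (1.09 ± 0.21, adjusted p = 0.00639), from 9.98, 11.76 and 12.47 to 11.86, 12.56 and 13.32. Its 3 probes gave 1.09, 1.06 and 1.38, but averaged over these probes the difference of 1.18 was not called (adjusted p = 0.252). Plxna3, a co-receptor for Sema3f with Nrp2, rose 2.62-fold there (1.39 ± 0.37, adjusted p = 0.0415), from 10.72, 12 and 14.02 to 12.39, 13.21 and 14.28, and was called in 4 of 17 leave-one-out fits. Plxna1, a receptor for Sema3a and Sema6d, fell 11.9-fold in the dorsal wall (-3.57 ± 0.86, adjusted p = 0.0276), from 11.33, 13.50 and 15.60 to 7.81, 10.09 and 13.70. Its early and late ranges overlapped by the highest late arrays, its within-slide values were -5.29, -2.88 and -3.32, and it was called in 9 of 17 leave-one-out fits. A second Plxna1 probe, dimmer but above background on all arrays, gave 0.56 in the dorsal wall, in the opposite direction. The lateral difference of Plxna1 was -0.58 ± 0.75.

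Plxnb3, the receptor that binds Sema5a, stood out at 14 days. Its lateral levels there were 10.43, 11.63, 12.30 and 13.66, above all 13 lateral arrays of the other times, which lay between 6.86 and 8.78. The dorsal levels at 14 days, 7.57, 9.96, 14.15 and 13.31, spread widely and overlapped the earlier ones. The change over time in the mean of both walls passed the F test (largest difference between times 4.60, adjusted p = 0.0395), a call kept in 5 of 17 leave-one-out fits, and the 14 days arrays lay on a slide of their own. The late samples also had the widest spread of oligodendrocyte markers, whose mean level over 12 genes ran in the lateral wall from 9.40 to 10.49 early and from 8.66 to 13.25 late, and the part of these cells in the result was not tested. Plxnb2, Plxnb1, Plxnc1 and Plxnd1 did not pass in either wall. Plxnb2, a receptor for class 4 semaphorins known in SVZ neuroblasts, gave -0.92 ± 0.54 dorsal and 0.31 ± 0.27 lateral, and Plxnd1 gave -0.67 ± 0.74 and -0.15 ± 0.56. Plxnc1, the plexin that binds Sema7a, had a lateral difference of 1.35 ± 0.41 (adjusted p = 0.0698).

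Of the neuropilins, the co-receptors for class 3 semaphorins, Nrp2 rose 4.29-fold in the lateral wall (2.10 ± 0.51, adjusted p = 0.0258). Its lateral mean started at 14.18 ± 0.17 (SD, n = 2, 8 hours), was lower after 1 day (8.36 ± 2.28, n = 3) and 2 days (10.35 ± 0.95, n = 2), and was 12.72 ± 0.36, 13.83 ± 0.07 and 12.65 ± 0.63 at the late times (n = 3, 3 and 4). The 8 hours samples lay above every late sample, so the late levels were higher than those of 1 and 2 days only, and within slide 1, which held 8 hours, the difference was -1, against 2.49 and 3.44 on slides 3 and 4. The Nrp2 call was lost without 8 hours replicate 1 (adjusted p = 0.0788) and without each of 4 other arrays. Nrp1 gave 0.33 ± 0.70 dorsal and 0.68 ± 0.76 lateral and did not pass.

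Among the Slits, secreted repellents of migrating neuroblasts, the Slit2 probe chosen by brightness fell in both walls. Its dorsal levels were 9.04, 9.94 and 13.73 (lowest, median, highest) early and 6.26, 6.76 and 9.71 late, and its lateral levels 6.56, 8.43 and 10.02 early and 6.18, 7.15 and 7.77 late. The groups overlapped in both walls, and 1 day held the highest mean in each, 12.18 ± 1.72 (SD, n = 3) dorsal and 9.97 ± 0.05 lateral. The measured log2 difference was -3.05 ± 0.59 in the dorsal wall (adjusted p = 0.00809) and -1.47 ± 0.26 in the lateral wall (adjusted p = 0.00456), with some samples of each wall not well above background. This rests on 1 probe at mm9 chr5:48696502-48696561 (plus strand), position 7472 of the transcript, which was well above background on 11 of 17 dorsal and 15 of 17 lateral arrays. A second Slit2 probe at position 6846 of the same transcript, above background on all 17 arrays of both channels, gave -0.04 ± 0.46 dorsal and 0.03 ± 0.36 lateral. The mean levels of the 2 probes were 8.18 and 8.14, so which is the brighter turns on the processing, and the Slit2 change belongs to the probe rather than to every Slit2 probe. Slit1, the Slit that neuroblasts themselves make, gave 0.83 ± 0.49 dorsal and 0.90 ± 0.44 lateral and did not pass, and neither did Slit3 (0.32 ± 0.33 and -0.67 ± 0.30).

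Robo2, a Slit receptor of migrating neuroblasts, rose 17.1-fold in the lateral wall (4.10 ± 0.46, adjusted p = 0.000181). Its lateral levels ran from 5.99 over a median of 7.84 to 10.47 early and from 11.73 over 12.45 to 14.40 late, without overlap. The dorsal levels ran from 8.37 over 9.94 to 12.07 and from 8.68 over 12.48 to 13.55, with wide overlap, and the difference was 1.85 ± 0.59 (adjusted p = 0.0963). Within slides 1, 3 and 4 the lateral values were 2.80, 2.46 and 4.87 and the dorsal ones 2.38, 4.02 and 3.07. The probe, at mm9 chr16:73920606-73920665 (minus strand), bears the name Robo2 only in the older of the array's annotations and lies among other Robo2 probes. With only the probes named alike in both annotations, Robo2 gave 1.20 in the lateral wall (adjusted p = 0.329). All 6 Robo2 probes gave a positive late minus early difference in both walls, from 0.09 to 4.10 lateral and from 0.13 to 2.33 dorsal. Robo1, the paralogue that acts beside Robo2 in these cells, gave 0.13 ± 0.53 dorsal and 0.36 ± 0.50 lateral and did not pass, nor did Robo3 (0.03 and 0.10) or Robo4 (-0.69 and -1.35), the Robo of blood vessels.

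**Figure D3:**
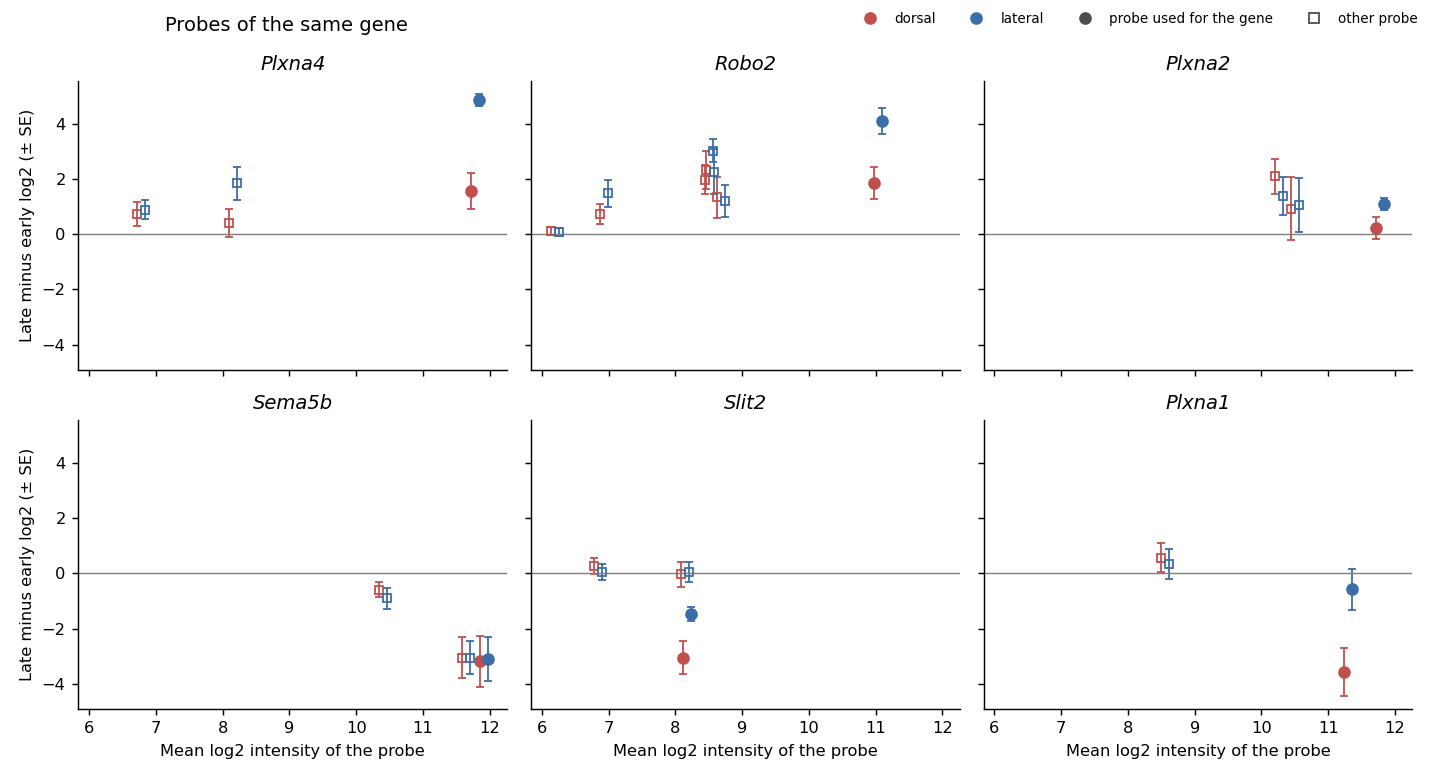
Late minus early log2 difference with its standard error for each probe of Plxna4, Robo2, Plxna2, Sema5b, Slit2 and Plxna1, against the mean log2 level of that probe, in the dorsal and the lateral wall, with the walls set slightly apart. Filled points are the probe that represents the gene. Probes of Plxna2 lie together in the lateral wall at 1.06 to 1.38, whereas those of Slit2 and Plxna1 part.

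The ephrins gave 1 call in each wall, both upward, where 3.46% of all genes rose laterally and 1.51% dorsally. Efnb3, a transmembrane ephrin, rose 8.90-fold in the lateral wall (3.15 ± 0.80, adjusted p = 0.0359, 16 arrays measured). Its lateral levels were 6.88, 12.60 and 13.90 early and 14.39, 15.08 and 15.40 late, without overlap, and the early low of 6.88 was 1 day replicate 1, an array that stood apart. The call was kept in 4 of 17 leave-one-out fits. The within-slide values of Efnb3, which do not contain 1 day, were 3.72, 2.16 and 1.52, and the dorsal difference was 1.59. Efna2, a GPI-anchored ephrin, rose 3.30-fold in the dorsal wall (1.72 ± 0.45, adjusted p = 0.0397), from 5.85, 6.95 and 7.67 to 7.06, 8.65 and 10.71, and was called in 5 of 17 leave-one-out fits. Its lateral levels went from 6.08, 7.92 and 9.51 to 7.20, 8.67 and 11.28, and the lateral difference did not pass. Efnb2, a ligand of EphB receptors and of Epha4, gave 1.20 ± 0.58 and 1.83 ± 0.67 in the dorsal and lateral wall, Efnb1 gave -0.01 ± 0.50 and 0.57 ± 0.33, and Efna5 gave 0.82 ± 0.71 and -0.84 ± 0.93, and none of these 3 passed. Efna1, Efna3 and Efna4 lay between -0.69 and 0.56 in both walls.

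None of the 9 EphA and 5 EphB receptors passed limma's threshold between early and late times in either wall. The unadjusted p was under 0.05 for Epha2 and Ephb3 dorsally and for Epha3 and Ephb4 laterally. The share of all genes at that unadjusted level is not given here, so this list is not read as a result about the members. All 5 EphB receptors had a negative difference in the dorsal wall (median -0.68, from -2.09 to -0.11), and in the lateral wall 3 were negative and 2 positive. The median over all genes was 0.03 in both walls. The EphA medians were -0.23 dorsal and -0.02 lateral, and the lowest EphA values were -1.75 ± 1.07 for Epha5 in the dorsal and -2.19 ± 0.74 for Epha3 in the lateral wall. Epha4, a receptor for ephrins of both classes, gave -0.76 ± 0.67 dorsal and -0.02 ± 0.68 lateral, and Ephb2, an EphB receptor of the neurogenic SVZ, gave -0.32 ± 0.73 and 1.24 ± 0.66. Ephb1 passed the F test over time in the mean of both walls (largest difference between times 1.79, adjusted p = 0.00753) without an order of early and late. In the dorsal wall its levels were 11.72 to 13.46 at the early times, 10.16 to 11.30 at 4 and 7 days, and 13.14 to 15.89 at 14 days. Every dorsal array of 4 and 7 days thus lay below every other dorsal array, while the lateral means stayed between 11.18 and 13.14. With slide as a block, which leaves out 1 and 14 days, the largest Ephb1 difference between the remaining times was 0.99 (adjusted p = 0.208). That value does not contain the 14 days levels.

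Of the 4 netrins and 5 netrin receptors none passed limma's threshold between early and late times. The unadjusted p was under 0.05 for Ntn1, Ntn4, Dcc and Unc5a dorsally and for Unc5b laterally. The share of all genes at that unadjusted level is not given here, so this list is not read as a result about the members. Ntn1, the secreted netrin, gave -0.84 ± 0.28 dorsal and -1.04 ± 0.70 lateral. Dcc, the receptor that mediates attraction to it, gave 1.24 ± 0.42 and 0.70 ± 0.42, and Unc5d, a receptor of the repulsive branch, gave -0.43 ± 0.52 and 0.65 ± 0.36. Ntn3, Ntn4 and Ntn5 lay between -1.14 and 0.37 in both walls. All 5 netrin receptors had a positive lateral difference, from 0.22 to 1.13, against a median of 0.03 over all genes. Some of these values lay near the floor. Laterally, Unc5b was above background on 1 of 7 early and 5 of 10 late arrays, and Unc5a on 4 of 7 early arrays. How many of all genes had a positive difference is not given here. The name matches Unc50 and Unc5cl gave -0.93 and -0.10 in the dorsal and -0.18 and 0.15 in the lateral wall.

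Markers of several cell types moved over the same interval. Of 16 neuroblast markers 14 rose in the dorsal wall (median 3.72) and 12 in the lateral wall (median 2.83). Their mean level per array lay in the dorsal wall between 9.37 and 10.95 at early times and between 11.24 and 14.15 at late times, and in the lateral wall between 9.62 and 13.00 and between 12.76 and 14.40. Of 13 radial glia markers 6 fell in the dorsal and 2 in the lateral wall, of 12 astrocyte markers 5 and 3 fell and 1 rose laterally, and of 10 ependymal markers 5 and 6 fell and 1 rose dorsally. Of 11 mature neuron markers 2 rose in the dorsal and 3 in the lateral wall (medians 0.77 and 1.03), Snap25 and Rbfox3 in both. Of 12 oligodendrocyte markers none passed in the dorsal wall, and in the lateral wall Sox10 rose and Olig2 fell. Of 8 mural markers Vtn rose and Pdgfrb fell in the dorsal wall and none passed in the lateral, and of 10 microglia markers P2ry12 alone rose, in the lateral wall. Of 7 erythroid markers 4 fell in the dorsal wall and none in the lateral. Endothelial and choroid plexus markers gave no call in either wall. The part of these cell types in the changes of the guidance genes was not tested.

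Genes that act with or below the guidance receptors (79 measured, adhesion partners and cytoplasmic effectors) changed as well. In the dorsal wall 12 rose and 5 fell, where 1.51% of all genes rose and 3.74% fell, and in the lateral wall 15 rose and 2 fell, where 3.46% rose and 3.04% fell. The medians were 0.41 and 0.69, against 0.03 over all genes in both walls. Dscam, an adhesion molecule and netrin receptor, rose by 4.53 ± 0.69 (log2 ± SE, adjusted p = 0.00208) in the dorsal and 4.44 ± 0.40 (adjusted p = 2.56e-05) in the lateral wall. Grip1, an adaptor that binds ephrin B ligands, rose by 3.67 ± 0.59 (adjusted p = 0.00257) and 5.29 ± 0.44 (adjusted p = 1.72e-05). Cntn2, an axonal adhesion molecule, rose by 4.07 ± 0.83 in the dorsal (adjusted p = 0.0116) and 2.97 ± 0.71 in the lateral wall (adjusted p = 0.0244). Dpysl5, a collapsin response mediator of semaphorin signalling, rose by 3.19 ± 0.65 (adjusted p = 0.011) and 3.18 ± 0.63 (adjusted p = 0.0084). Among those that fell, Rgma, a repulsive ligand of neogenin, gave -2.36 ± 0.44 dorsal (adjusted p = 0.00728) and -2.02 ± 0.48 lateral (adjusted p = 0.0239). Rnd1, a small GTPase that binds plexins, gave -3.20 ± 0.67 in the dorsal wall (adjusted p = 0.0134), and Arhgef11, an exchange factor downstream of B-type plexins, gave -2.46 ± 0.48 there (adjusted p = 0.00821). Dock1, an exchange factor recruited by Dcc, gave -2.21 ± 0.36 in the dorsal (adjusted p = 0.00285) and -2.45 ± 0.39 in the lateral wall (adjusted p = 0.00219).

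The walls were compared on each array as dorsal minus lateral log2 difference, positive where dorsal was higher. In the mean of the 6 times 6 of 71 members differed, 4 higher dorsally and 2 higher laterally, where 2.47% of all genes did so (1.35% and 1.12%). The members' median was 0.20, with 50 positive and 21 negative, against 0.02 over all genes. By time, 43, 42 and 51 members were positive at 8 hours, 1 day and 2 days. At 4, 7 and 14 days 32, 32 and 30 were positive, with medians of -0.05, -0.03 and -0.07, so the dorsal lean was early. The share of all genes with a positive sign is not given here. Beside this, 6 of 13 radial glia and 5 of 12 astrocyte markers were higher dorsally (medians 0.70 and 1.23) and 4 of 16 neuroblast markers higher laterally (median -0.77). Single markers of other types were called as well: the erythroid Hbb-bt at 3.7, the oligodendrocyte marker Sox10 at 1.67 and the choroid plexus marker Kl at -0.3. The part of these cell types in the wall differences was not tested.

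Unc5a and Dcc, receptors for netrin, were both higher on the dorsal side. Dcc was higher on 17 of 17 arrays: the early differences were 1.01 and 0.23 (8 hours), 0.31, 0.59 and 2.36 (1 day) and 1.13 and 1.81 (2 days), and the late ones 3.11, 1.87 and 1.21 (4 days), 0.87, 2.16 and 0.61 (7 days) and 2.97, 0.66, 0.36 and 2.08 (14 days). No array opposed the direction, and the mean was 1.33 ± 0.24, or 2.51-fold (adjusted p = 0.0138). How many of all genes kept 1 direction on every array was not counted, and wall and dye cannot be told apart here. A second, dim Dcc probe gave 0.13 ± 0.08, and without 8 hours replicate 1 the adjusted p was 0.0548. Sema6d, a transmembrane ligand of Plxna1, was higher on 15 of 17 arrays, with negative values of -0.57 and -0.21 at 8 hours only and 0.49 to 2.65 at all later times. Its mean was 1.05 ± 0.16, or 2.07-fold (adjusted p = 0.00717), and with arrays centred on their medians in place of loess it was 0.35 (adjusted p = 0.0995).

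Plxna2 and Sema6c were higher laterally. Plxna2 was so on 15 of 17 arrays, positive at 0.92 and 0.72 on 2 arrays of 1 day and from -1.93 to -0.29 on the others, with a mean of -0.85 ± 0.16, or 1.80-fold (adjusted p = 0.0153). Its 3 probes gave -0.85, -1.26 and -1, and the call was lost without 2 days replicate 1 (adjusted p = 0.0593) or 8 hours replicate 1 (0.0605). It was also lost when the probes were averaged (-1.04, adjusted p = 0.124). The scanner's processed signals gave -1.01 (adjusted p = 0.0507) and the deposited value table -0.95 (adjusted p = 0.0596). Sema6c, a transmembrane semaphorin, was lower dorsally on 13 of 17 arrays, with the positive values of at most 0.69 falling at 8 hours, 1 day and 14 days and a lowest value of -3.29 at 7 days. The mean was -1.02 ± 0.24, or 2.03-fold (adjusted p = 0.0467), and was called in 3 of 17 leave-one-out fits. Epha2, a receptor for A-type ephrins, was higher dorsally by 1.25 and 1.92 at 8 hours and 2.10 and 1.27 at 2 days, and between -0.76 and 1.09 on the other arrays. Its measured mean was 0.58 ± 0.12, or 1.49-fold (adjusted p = 0.03), positive on 11 of 17 arrays, and leaving out any of 7 arrays ended the call (adjusted p 0.0501 to 0.107). Epha2 was well above background on 11 dorsal and 9 lateral arrays, and at 4 days on none in either wall. The mean thus includes arrays at the floor, and with the scanner's processed signals it was 0.92 (adjusted p = 0.2).

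**Figure D4:**
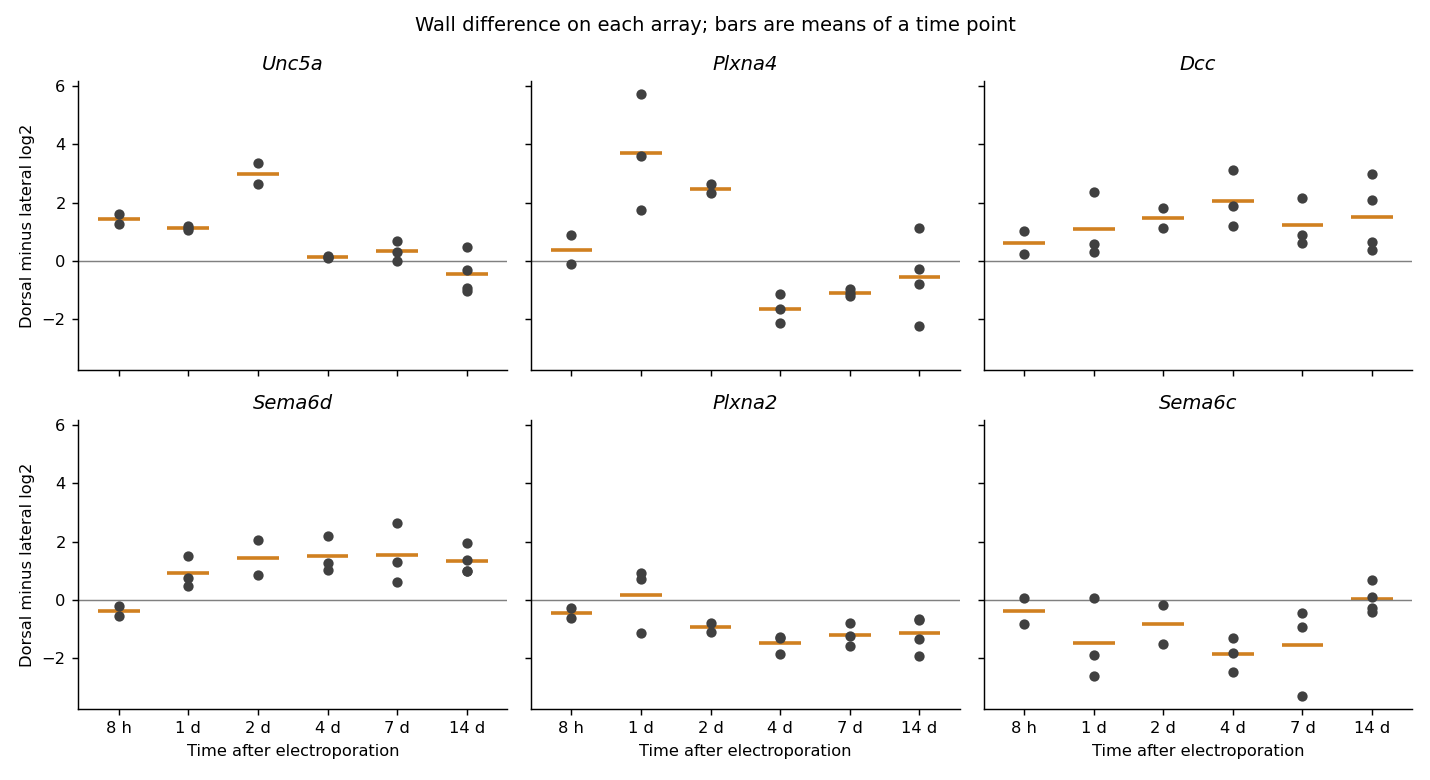
Dorsal minus lateral log2 difference on each of the 17 arrays by time after electroporation for Unc5a, Plxna4, Dcc, Sema6d, Plxna2 and Sema6c, with the mean of each time. Unc5a lies above 1 on all 7 early arrays and at or below 0.67 on all late ones, Plxna4 turns from mostly positive to mostly negative, and Dcc stays above 0 on every array.

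The wall difference of Unc5a, a receptor for repulsion by netrin, was early. Early dorsal minus lateral values were 1.25 and 1.60 (8 hours), 1.20, 1.13 and 1.05 (1 day) and 2.62 and 3.34 (2 days). Late ones were 0.14, 0.17 and 0.10 (4 days), 0.00, 0.29 and 0.67 (7 days) and 0.46, -1.02, -0.93 and -0.30 (14 days). All early arrays thus lay above all late ones, and how many of all genes separate so in the wall difference was not counted. At 2 days Unc5a was the only member called, with a measured difference of 2.98 ± 0.32 (adjusted p = 0.00382), where 0.177% of all genes were called. The lateral side was well above background on 1 of the 2 arrays there, and the call was lost with the scanner's processed signals (3.84, adjusted p = 0.291) and in the deposited value table (3.65, adjusted p = 0.363). Its mean over the 6 times was 0.92 ± 0.11, or 1.90-fold (adjusted p = 0.00298). Late minus early, the wall difference of Unc5a fell by 1.84 on the log2 scale (SE 0.23, adjusted p = 0.00961), with within-slide values of -1.04, -2.55 and -3.10. The levels were low: the single probe was well above background on 4 of 7 early lateral arrays and on neither lateral array of 8 hours, where dorsal was at least 2.68-fold higher. With the scanner's processed signals the late minus early value was -2.95 (adjusted p = 0.151) and with slide as a block -1.93 (adjusted p = 0.131). Unc5a was also the only member whose wall difference changed over time by the F test (adjusted p = 0.0414, where 0.0823% of all genes changed), and that call was kept in 4 of 17 leave-one-out fits.

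Plxna4 was the other member whose wall difference changed between early and late times, 2 of 71 where 0.3% of all genes did so. Its early values were 0.87 and -0.12 (8 hours), 1.75, 5.72 and 3.60 (1 day) and 2.62 and 2.33 (2 days). Its late values were -1.14, -1.67 and -2.14 (4 days), -1.11, -1.21 and -0.96 (7 days) and -0.27, 1.11, -2.25 and -0.79 (14 days). The dorsal side was thus higher on 6 of 7 early arrays, and the lateral side on 9 of 10 late arrays. The change was -3.28 ± 0.55 (adjusted p = 0.0342), kept in 6 of 17 leave-one-out fits, with within-slide values of -1.93, -3.74 and -3.77. Averaged over the gene's probes it was -1.62 (adjusted p = 0.0825), and with slide as a block -2.84 (adjusted p = 0.131). All 9 plexins had a negative late minus early wall difference, from -3.28 to -0.52 with a median of -0.94, where the median was -0.52 over the members and 0.00 over all genes. Plxna4 alone among them passed the test.

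At 1 day 2 of 71 members differed between the walls, where 1.16% of all genes did so. Both are receptors and both were higher dorsally on 3 of 3 arrays. Plxna4 was 12.9-fold higher (3.69 ± 0.64, adjusted p = 0.0198). Robo2 had differences of 4.11, 5.36 and 3.95, all large, and was 22.2-fold higher (4.47 ± 0.87, adjusted p = 0.0296). Neither was seen by the genes' other probes: these gave 0.01 and -0.08 for Plxna4 and between -1.38 and 0.76 for Robo2. Without any 1 array of this time Robo2 was not called (adjusted p = 0.0526 to 0.122), and Plxna4 was not called without 1 day replicate 2 (0.0898). At 8 hours, 4 days, 7 days and 14 days no member passed limma's threshold, where 0.37, 0, 0.0246 and 0.0247% of all genes did. An unadjusted p under 0.05 was found for 11, 10, 10 and 12 members. The share of all genes at that unadjusted level is not given here, so these counts are not read as results about the members. Ntn4, a laminin-related netrin, was well above background on no lateral array at 8 hours or 2 days. In the mean of the 2 arrays it was there at least 2.73-fold and at least 3.98-fold higher dorsally. The measured log2 differences were 1.37 and 1.53 at 8 hours but 3.04 and 0.94 at 2 days, and Ntn4 was called at neither time.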

How the data were processed

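RNA of GFP-positive sorted cells was measured on 17 Agilent arrays of 2 colours. Spot values were linear fluorescence intensity, which the authors read with the scanner software Agilent Feature Extraction, version 10.5.1.1 on slides 2 to 4 and 10.7.3.1 on the rest, per the file headers. The deposited log10 ratio of Cy5 over Cy3, per the file headers, served only to read the scale of the deposited value table. Set against that ratio across probes, each column of the table gave r between -0.91 and -0.97 and a slope between -3.26 and -3.31, so the authors deposited log2 values of dorsal over lateral. The column medians were -0.00838 and -0.00827 (8 hours), -0.0287, -0.0663 and -0.0564 (1 day), -0.0192 and -0.0296 (2 days), 0.0021, 0.0518 and -0.0134 (4 days), -0.0113, -0.0201 and -0.00865 (7 days), and -0.095, -0.149, 0.00181 and -0.00722 (14 days). The sources used here do not state how these columns were centred near 0.

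From the mean signals and median local backgrounds, background was corrected with normexp (offset 50), ratios were normalized by loess with controls at weight 0, and mean intensities by Aquantile. Outlier spots (0.32 to 2.61% per array) were set to missing and no spot was saturated. Replicate spots were averaged per probe, and the brightest passing probe represented a gene: 36 members had 1 probe and 35 several. Of all probes, 27198 were named by accession and 6573 by symbol in RefSeq's GRCm38.p6 annotation, and 7403 kept the file's name. The name rule matched 119 member probes in the newer annotation in the files and 125 in the older, 116 in both. Probe positions are those in the files (mm9).

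All arrays entered 1 fit per quantity with a mean per time in limma 3.58.1 (lmFit, eBayes; R 4.3.3, data.table (1.17.8)). P-values are two-sided and adjusted by Benjamini-Hochberg over all genes of a comparison (threshold 0.05). They measure the spread between arrays labelled as biological replicates, for which the number of animals per sample is not known. Bounds set the brighter wall's mean against, per array, the higher of the dim probe's own signal and the lowest signal well above background, and are open to dye bias. Named with values are members called in any of the comparisons, a fixed set of ligands and receptors of this tissue, and called downstream genes. The members, the lists and the division into early and late times were chosen with earlier results of these data known. Alternatives covered signals, normalization, filters, probes, blocks and arrays left out. The fit was tested on simulated data. Figures used matplotlib 3.10.9 (Python 3.11.15, pandas 2.3.3, numpy 2.4.6).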

Additional observations from a re-analysis of the deposited data

Results flagged for a closer look

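The levels and wall differences of the named members were searched for a 14 days sample far from the other 3. Of 105 values tested 9 were flagged, where chance flags about 1 in 20. In the dorsal wall these were Sema3b in replicate 4, at 11.25 against 6.38 to 6.54 in the others, and Unc5d in replicate 2, at 7.98 against 7.12 to 7.20. In the lateral wall they were Efna2 in replicate 2 (11.28 against 7.20 to 7.86), Efna5 in replicate 1 (6.19 against 12.34 to 12.99) and Nrp1 in replicate 1 (12.83 against 7.27 to 7.37). Ntn1 (6.83 against 6.22 to 6.31) and Unc5a (9.98 against 7.49 to 7.74) stood out in the lateral sample of replicate 2, an array that stood apart as a whole. The dorsal minus lateral difference of Sema3b was 4.28 in replicate 4 against -0.13 to 0.14, and that of Sema4g was -3.18 in replicate 2 against 0.17 to 0.85.

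In 2 genes the change with time differed between the walls by limma's test of the difference: the late minus early change was lower dorsally by a log2 value of -3.28 in Plxna4 and of -1.84 in Unc5a. For Unc5a the wall difference also changed over the 6 times by the F test, at an adjusted p of 0.0414.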

How the results depend on the processing

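Counts of members called by limma are given against the main counts of 6 (mean wall difference), 2 (1 day), 1 (2 days), 1 (change of the wall difference with time), 2 (its late minus early change), 12 (change with time), 6 (dorsal late minus early) and 13 (lateral). With the scanner's processed signals they were 2, 2, 0, 0, 1, 9, 4 and 7, and in the deposited value table the wall counts were 2, 2, 0, 0 and 1. Median centring gave 14 in the mean wall difference, 2 at 14 days and 0 for its change with time. Averaging the probes of a gene gave 0 at 1 day and 1 for the late minus early wall change. The stricter filter gave 0 for the change of the wall difference with time, and probes named in both annotations gave 1 at 1 day. Array weights gave 10, 5 at 8 hours, 0 at 1 day, 4 at 2 days, and 3, 64, 18 and 20 for the wall change with time, the time change and the dorsal and lateral changes. Slide as a random block gave 14, 4 at 8 hours, 12 at 1 day, 12 at 14 days, 6 for the wall change with time and 41 for the time change, at a negative slide correlation of -0.18 to -0.25. Slide as a fixed block, fitted without the 1 day and 14 days arrays, gave 0 for the late minus early wall change. It gave 20 for the time change and 19 and 15 for the dorsal and lateral changes. Without both arrays that stood apart the counts were 4 at 1 day and 19 for the time change. The shares of all genes under these and the following settings are not given here, so the counts are not read as results about the members.

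Same-numbered samples did not deviate together on average (mean r 0.004 for the wall difference and 0.028 for the mean of both walls). Single pairs ran from -0.04 to 0.076 and from -0.133 to 0.33. At 2, 4 and 7 days every replicate 1 lay on slide 3 and every replicate 2 on slide 4. Replicate 3 of 4 and 7 days lay on slide 1. The numbers thus follow the slides there, and the mean r cannot tell whether they pair the samples. With the replicate block the counts were 0 in the mean wall difference, 1 at 1 day, 0 at 2 days, 0 and 1 for the changes of the wall difference, 10, 7 and 10. Where these settings gave 0, between 8 and 18 members had an unadjusted p under 0.05, a count without the share of all genes beside it.

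Leaving out each array in turn gave 2 to 8 calls in the mean wall difference, 0 to 1 at 8 hours, 0 to 3 at 1 day, 1 to 2 at 2 days, 0 to 1 and 1 to 2 for the changes of the wall difference, 7 to 18 for the time change, 3 to 9 dorsally and 8 to 16 laterally. Single values reversed in 4 cases: Robo2 at 1 day was -1.38 with probes named in both annotations, and Slit2 was 0.07 dorsally and 0.05 laterally with processed signals and 0.14 dorsally with quantile normalization, where another Slit2 probe was the brightest. Of the other values named, 424 were on the same side of the threshold and 78 lost the call under these settings, and 553 and 178 on leaving out an array. The lateral rises of Plxna4, Sema5a, Sema7a and Sema4g and the dorsal rise of Sema7a were called under every setting run and without any single array. With 2 to 4 arrays a time and members near background (Unc5a, Sema3b, Epha2), a missed threshold does not show that the walls or times were alike.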
